A study of Mus musculus with 50 samples.

Results

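Thyroids of mice given antibodies against the receptors Notch1 and Notch2 (aN1aN2) were compared 5 days later with thyroids of mice given an isotype control antibody against ragweed (RW). The comparison was limited to libraries in which thyroglobulin (Tg), the precursor protein of thyroid hormone, took at least 5% of all read counts. This left 9 libraries of 50 in the series, 4 of 5 in the RW group and all 5 in the aN1aN2 group. The libraries were chosen by the raw Tg count divided by the library total, so Tg and its share are described without a test between the groups. The last library inside the limit was aN1aN2 replicate 1, with Tg at 8.80% of counts, and RW replicate 3 lay outside it at 0.450%. Beside the results of the 9, values over all libraries are given for the calls as a whole, for the genes the results turn on and, as medians, for the gene lists.

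The mice were normal male C57BL/6 animals of 10 to 14 weeks by the protocol and 10 to 12 weeks by the design text. Each received 1 intraperitoneal dose, 40 mg/kg of anti-ragweed in the RW group and 5 mg/kg anti-Notch1 with 10 mg/kg anti-Notch2 in the aN1aN2 group. Another 5-day group, given antibodies against the ligands Jag1 and Jag2 (aJ1aJ2, 20 mg/kg each), entered the fit for its spread, with 4 libraries above the Tg limit and replicate 3 outside it at 2.39%. The antibodies act in the whole animal and not in the thyroid alone. The design text also names daily thyroid hormone injections from day 2 in part of the study, without saying which mice received them. No label says whether a library is 1 animal or a pool, so the p-values measure the spread between these libraries. The labels give no clock time of necropsy.

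Notch receptors are cut after binding a ligand on a neighbouring cell, and the freed intracellular part joins the DNA-binding protein RBPJ to switch on target genes such as the Hes and Hey repressors. In vessels, Notch1 and Notch4 act in endothelium, while Notch3 and its target Heyl mark mural cells, the pericytes and smooth muscle cells that wrap the endothelial tube. The thyroid follicle is surrounded by a dense capillary net, and its epithelium devotes much of its secretory pathway to Tg.

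The 9 libraries had between 23882289 and 52835846 counts. Tg took 34.0% to 40.3% of counts in the 4 RW libraries. In aN1aN2 it took 8.80%, 33.6%, 41.3%, 13.9% and 40.4% in replicates 1 to 5. A list of 18 skeletal muscle genes took 0.190% to 1.77% in the 4 RW libraries and 12.1%, 2.04%, 0.440%, 8.12% and 1.10% in aN1aN2. Muscle transcripts were therefore highest in the 2 aN1aN2 libraries of lowest Tg. In RW replicate 3 the muscle list reached 19.2%, mitochondrially encoded genes 10.6%, and a 21-gene thyroid function list 0.0194%, against 0.556% to 0.660% in the other RW libraries. A 14-gene T cell and thymus list reached 0.191% in aN1aN2 replicate 4, and a 12-gene airway list 0.966% in replicate 1, each far above the other 4 aN1aN2 libraries. None of the marker genes of these 3 lists was at 0 in all 4 RW or in all 5 aN1aN2 libraries. The main results below are also given for the 7 libraries with Tg at 20% or more, which leave out aN1aN2 replicates 1 and 4.

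**Figure D1:**
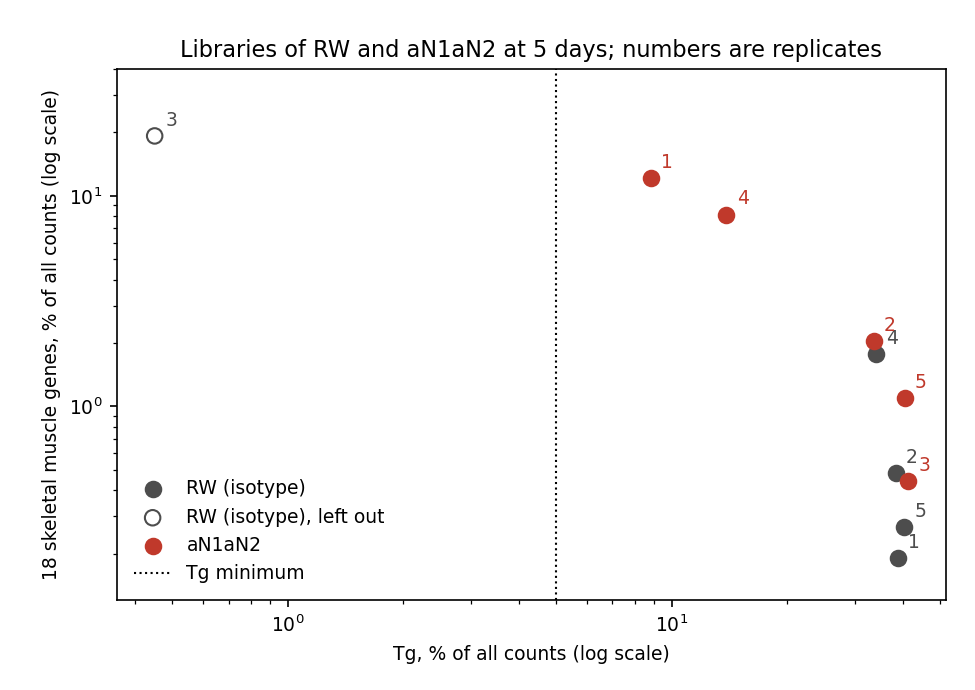
Share of all counts taken by Tg (x axis, percent, log scale) and by 18 skeletal muscle genes (y axis, percent, log scale) in each RW and aN1aN2 library at 5 days, with replicate numbers beside the points. RW replicate 3 lies left of the dotted 5% line at 0.450% Tg and 19.2% muscle, and aN1aN2 replicates 1 and 4 lie between it and the other 7 libraries.

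Over the 9 libraries, 74 of 18529 genes tested (0.399%) passed an adjusted p of 0.05 in edgeR's quasi-likelihood test with Benjamini-Hochberg adjustment. Of these, 17 (0.0917% of genes tested) were higher under aN1aN2 and 57 (0.308%) were lower, and 38 changed at least 2-fold. The higher genes were led by circadian clock output genes, and the lower genes held Notch3 and the pericyte gene Rgs5, secretory pathway genes and the enzymes of fatty acid synthesis. In 73 of the 74 the library-scaled counts (CPM) of the groups did not overlap, against 1392 of all genes tested (7.51%), of which 514 (2.77%) were higher and 878 (4.74%) lower. The exception was Ccl7, a chemokine gene, named after its values were seen. An unadjusted p under 0.05 was reached by 4416 genes.

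Over all 15 libraries, which add RW replicate 3 and aJ1aJ2 replicate 3, 0 of 18434 genes (0%) passed in the same edgeR test, 1848 had an unadjusted p under 0.05, and the smallest adjusted p was 0.109. Each of these libraries alone lowered the count. With only RW replicate 3 put back, 0 genes passed in edgeR, with 2083 at an unadjusted p under 0.05 and a smallest adjusted p of 0.0818. With only aJ1aJ2 replicate 3 put back, 9 passed, all among the 74: Nr1d1, Nr1d2, Tef, Cry2, Rgs5, Csmd2, Bet1, Selenok and Serpinh1. Over all libraries all 74 genes kept their direction, with adjusted p from 0.109 to 0.894. DESeq2 called 402 genes over all libraries. The biological coefficient of variation of the fit was 0.526 with all libraries and 0.362 with those above the Tg limit. At a Tg minimum of 20%, 182 of 18542 genes passed (0.982%), 55 higher (0.297%) and 127 lower (0.685%). They included 56 genes of the 74, which is 75.7% of the first list and 30.8% of the second, and all 73 that were tested kept their direction. Both choices share most libraries with the fit that called the 74, so kept directions are no added support. The count of 74 depended on single libraries. It fell to 1 gene, Nr1d1, without RW replicate 1 or without RW replicate 2, to 12 without RW replicate 5, to 39 without aN1aN2 replicate 2 and to 14 without aN1aN2 replicate 5. It rose to 269 without RW replicate 4 and to 221 without aN1aN2 replicate 3. It also depended on the model. With only RW and aN1aN2 in the fit 2 genes passed, Nr1d1 and Tef. With the muscle share as a covariate 5 passed, 4 of them among the 74: Nr1d1 (log2 fold change 1.80, adjusted p = 0.00143), Tef (1.63, adjusted p = 0.00535), Rgs5 (-1.82, adjusted p = 0.00535) and Fasn (-1.29, adjusted p = 0.0390). The fifth was Odf3l2 (2.34, adjusted p = 0.0457), named after its values were seen. None of the other genes described below was called in either of those fits.

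The called clock output genes were higher in every aN1aN2 library than in any of the 4 RW libraries. All 17 called higher genes shared this, as did 514 of all genes tested (2.77%). Lack of overlap was also part of the rule that named genes, so it is no added support. Of 10 genes in the list that peaks with Dbp, 5 rose and none fell, against 0.0917% higher among all genes tested. The list's median log2 fold change was 1.17, against 0.04 over all genes tested. The circadian clock is a loop in which BMAL1 (gene Arntl) and CLOCK switch on the Per, Cry and Nr1d genes, whose proteins then repress it, and in which Dbp and Tef carry the rhythm to further genes. Nr1d1, a nuclear receptor that represses Arntl, had 44.9, 41.2, 51.6 and 44.5 CPM in RW and 188, 147, 153, 123 and 172 CPM in aN1aN2. Its log2 fold change was 1.78 (SE 0.14, adjusted p = 0.000380), the smallest adjusted p of all genes. Its relative Nr1d2 had 20.0, 20.6, 20.8 and 32.1 CPM in RW and 56.2, 62.7, 45.0, 44.7 and 53.1 CPM in aN1aN2 (log2 fold change 1.16, SE 0.17, adjusted p = 0.0265). The groups were well apart for both genes, and RW replicate 5 stood above the other RW libraries for Nr1d2.

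Tef, a transcription factor that binds the D-box element, rose from 37.2, 33.2, 54.7 and 35.9 CPM to 214, 188, 127, 164 and 157 CPM (log2 fold change 2.08, SE 0.26, adjusted p = 0.0209). Its close relative Dbp was low in RW, at 1.39, 1.20, 1.95 and 0.916 CPM, and stood at 6.04, 23.6, 11.2, 6.26 and 20.9 CPM in aN1aN2 (log2 fold change 3.32, SE 0.60, adjusted p = 0.0436). Dbp varied most within aN1aN2, with the 2 libraries of low Tg at the bottom of the range. Per3, a period gene, rose from 10.1, 7.04, 10.8 and 9.74 CPM to 26.7, 42.9, 27.5, 23.6 and 41.6 CPM (log2 fold change 1.78, SE 0.30, adjusted p = 0.0310). Cry2, a repressor of the loop placed in another clock list, rose from 24.0, 18.3, 27.8 and 22.1 CPM to 54.4, 42.7, 51.3, 41.1 and 46.9 CPM (log2 fold change 1.04, SE 0.13, adjusted p = 0.0209). That list, assembled after the calls, had 1 of 8 genes higher and 0 lower, against 0.0917% and 0.308% of all genes tested. Its median was -0.01 (-0.17 over all libraries and -0.13 at a Tg minimum of 20%), with 4 positive and 4 negative estimates.

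Genes of the opposite phase were not called, 0 of 5, with a median log2 fold change of -0.53 (-1.10 over all libraries). Npas2, a partner of BMAL1, had 37.5 to 49.5 CPM in RW and 8.64 to 34.5 CPM in aN1aN2 (log2 fold change -1.32, SE 0.50, adjusted p = 0.156). Arntl had 49.0 to 62.4 CPM in RW and 9.65 to 46.6 CPM in aN1aN2 (log2 fold change -1.04, SE 0.45, adjusted p = 0.186). Clock had 152 to 171 CPM in RW and 89.1 to 151 CPM in aN1aN2 (log2 fold change -0.43, SE 0.17, adjusted p = 0.164). Values in aN1aN2 lay below those in RW for all 3 genes without a call.

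At a Tg minimum of 20% the Dbp-phase list had 6 of 10 members higher (0.297% of all genes tested) and a median of 1.32. Nr1d1 and Tef had log2 fold changes of 1.78 and 1.96 there. With the 2 muscle-rich aN1aN2 libraries included, the log2 fold changes of these genes were 1.78 and 2.08. Both choices use the same RW libraries and share aN1aN2 libraries, so the similar values are no added support. The part of muscle in the clock difference was not tested by leaving those libraries out. RW replicate 3 did not share the low RW values, with 193 CPM of Nr1d1, 324 CPM of Tef, 73.5 CPM of Nr1d2 and 50.1 CPM of Cry2. These 4 values lie within or above the aN1aN2 range. With only that library put back, the log2 fold changes were 1.04 for Nr1d1 (adjusted p = 0.331), 0.79 for Tef (adjusted p = 0.737), 0.63 for Nr1d2 (adjusted p = 0.533) and 0.72 for Cry2 (adjusted p = 0.257). Over all libraries the adjusted p of these 4 genes ran from 0.287 for Cry2 to 0.809 for Tef, and the Dbp-phase median was 0.91. Dbp and Per3 changed less with RW replicate 3 put back, to 3.01 and 1.65 (adjusted p = 0.172 and 0.166), and were at 2.94 and 13.8 CPM in RW replicate 3. Exons of Nr1d1 overlap those of Thra, a thyroid hormone receptor gene, on the opposite strand, and exons of Dbp overlap Sphk2. Use of strand in counting is not given in the sources used here, so reads of these gene pairs cannot be told apart.

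**Figure D2:**
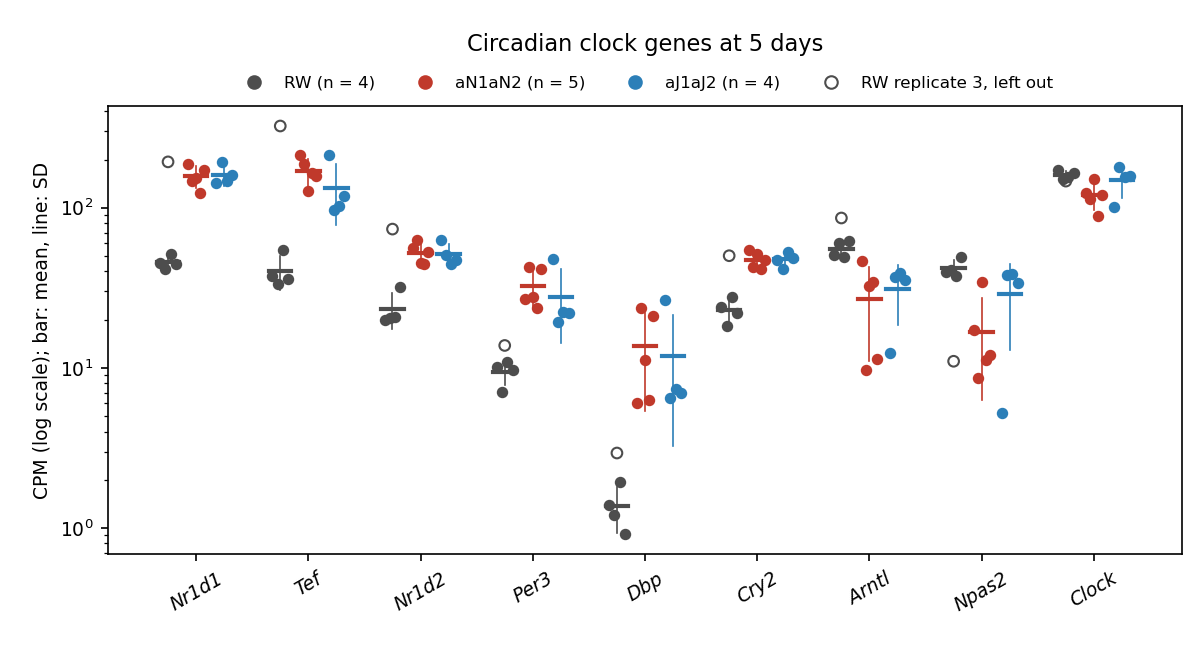
CPM (y axis, log scale) of 9 clock genes in each 5-day library, with the mean as a bar and the SD as a line for RW (n = 4), aN1aN2 (n = 5) and aJ1aJ2 (n = 4). The open circle is RW replicate 3, left out of the comparison, which lies with the treated libraries for Nr1d1, Tef, Nr1d2 and Cry2.

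The DNA just before the start of these genes was read from RefSeq's promoter table (build GRCm38.p6) to show the clock elements that the members carry. The table held 8 of 12 clock, Notch and mural genes looked for. In the 250 bases before the start, both strands were searched for the E-box CACGTG, bound by BMAL1 and CLOCK, and for the D-box TTATGTAA, bound by the Dbp and Tef proteins. The E-box was found before 6.02% of all 32851 start sites in the table and the D-box before 0.819%. A match is a run of letters and not a measured binding site. Tef has an E-box before each of its 2 annotated starts, at chr15:81802423-81802672 and chr15:81811164-81811413, both on the + strand, shown in capitals.
Tef start 1: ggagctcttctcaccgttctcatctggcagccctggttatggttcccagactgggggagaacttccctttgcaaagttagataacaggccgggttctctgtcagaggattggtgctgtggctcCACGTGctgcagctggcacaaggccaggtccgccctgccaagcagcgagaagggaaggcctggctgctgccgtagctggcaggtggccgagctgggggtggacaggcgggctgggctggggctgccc
Tef start 2: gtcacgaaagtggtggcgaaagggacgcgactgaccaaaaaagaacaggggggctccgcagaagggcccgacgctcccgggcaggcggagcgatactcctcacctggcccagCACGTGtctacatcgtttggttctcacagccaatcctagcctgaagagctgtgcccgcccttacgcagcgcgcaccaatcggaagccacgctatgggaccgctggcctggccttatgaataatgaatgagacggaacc

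Per3 has 2 D-boxes before its start, at chr4:151044666-151044915 on the - strand, beginning 205 and 158 bases before the start and shown in capitals.
Per3: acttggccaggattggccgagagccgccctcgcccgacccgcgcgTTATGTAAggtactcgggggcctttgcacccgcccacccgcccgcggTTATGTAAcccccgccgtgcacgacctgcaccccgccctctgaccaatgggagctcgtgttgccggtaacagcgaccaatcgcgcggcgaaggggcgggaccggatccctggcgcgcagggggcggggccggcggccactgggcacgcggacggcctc
The 250 bases before the starts of Nr1d1, Nr1d2, Dbp and Cry2 held neither of these 2 exact runs of letters. The letters GTGGGAA, the core bound by RBPJ, were searched in the same way and stand before 5.42% of all start sites. Among the 8 genes they were found before Cry2, beginning 171 bases before its start, and not in the windows of Notch3, Rgs5 or the other 5.

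Among genes that report Notch signalling, Notch3 was lower and the rest did not pass the test. Of 7 readouts tested, 1 fell and none rose, against 0.308% lower among all genes tested. The median log2 fold change was -0.27, against 0.04 over all genes. Notch3 had 38.6, 38.6, 39.6 and 39.9 CPM in RW and 14.1, 16.5, 24.6, 19.8 and 22.0 CPM in aN1aN2, a log2 fold change of -1.01 (SE 0.16, adjusted p = 0.0281). Its RW values were nearly equal and every aN1aN2 library lay below them. Heyl had 33.5, 50.2, 42.7 and 44.5 CPM in RW and 10.0, 15.7, 28.8, 13.3 and 20.2 CPM in aN1aN2. The groups did not overlap, but the log2 fold change of -1.28 (SE 0.28, adjusted p = 0.0723) did not pass. In RW replicate 3 Notch3 was at 27.1 CPM and Heyl at 15.0 CPM, and with only that library put back their log2 fold changes were -0.93 (adjusted p = 0.172) and -1.09 (adjusted p = 0.249). With only aJ1aJ2 replicate 3 put back, Notch3 was at -1.02 (adjusted p = 0.0710). Over all libraries Notch3 was at -0.93 (adjusted p = 0.169), and the median of the readouts was -0.09.

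The other readouts overlapped between the groups or nearly so. Hes1, a widely used Notch target, had 31.7 to 61.0 CPM in RW and 18.8 to 45.9 CPM in aN1aN2 (log2 fold change -0.68, SE 0.30, adjusted p = 0.191). Hey1 and Hey2, targets in arterial endothelium, had log2 fold changes of -0.18 (adjusted p = 0.484) and -0.27 (adjusted p = 0.699). Dtx1, a regulator of Notch, had -0.09 (adjusted p = 0.941), and its CPM ran from 1.53 to 9.68 in RW alone. Nrarp, a feedback inhibitor of Notch, had 14 counts in the 4 RW libraries and 38 in the 5 aN1aN2 libraries (log2 fold change 0.96, adjusted p = 0.214). Hes5 had 0 and 1 counts and was not tested. Hey2 and Dtx1 changed sign under some alternative settings, with values in the closing section.

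Transcripts of the blocked receptors did not differ detectably. Notch1 had 56.5 to 80.1 CPM in RW and 32.7 to 83.7 CPM in aN1aN2 (log2 fold change -0.04, SE 0.24, adjusted p = 0.926). Notch2 had 104 to 159 CPM in RW and 67.6 to 155 CPM in aN1aN2 (log2 fold change -0.20, SE 0.25, adjusted p = 0.651). The antibodies act on the proteins, which these data do not measure, and both estimates were positive at a Tg minimum of 20% (0.16 and 0.12). Notch4, an endothelial receptor, was at -0.30 (adjusted p = 0.262). Of 9 receptors and ligands, Notch3 was the 1 that fell, against 0.308% lower among all genes tested. The list's median was -0.33 (-0.14 over all libraries). Among the ligands, Dll1 was at -0.46 (adjusted p = 0.134), Dll4 at -0.40 (adjusted p = 0.268), Jag1 at -0.33 (adjusted p = 0.360), Jag2 at 0.25 (adjusted p = 0.441) and Dll3, below 1.5 CPM in every one of the 9 libraries, at -0.41 (adjusted p = 0.528). None of 31 genes for Notch processing and transcription was called, with a median of 0.05 (-0.04 over all libraries). Among those of lowest p were Neurl1a, a ubiquitin ligase (log2 fold change 2.10, adjusted p = 0.165), and Itch, another ubiquitin ligase (-0.31, adjusted p = 0.180). Neurl1a was highest in aN1aN2 replicates 1 and 4, at 118 and 70.1 CPM, the libraries richest in muscle transcripts, and its log2 fold change was 0.27 without them.

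Of 18 mural cell genes, 2 fell and none rose, with a median of -0.19. Of all genes tested 0.308% fell, and their median was 0.04. The mural median was -0.38 over all libraries and -0.34 at a Tg minimum of 20%. There 3 mural genes fell, against 0.685% of all genes tested. Rgs5, a regulator of G protein signalling and a pericyte marker, had 264, 243, 326 and 250 CPM in RW and 138, 80.9, 76.6, 108 and 70.4 CPM in aN1aN2. Its log2 fold change was -1.51 (SE 0.20, adjusted p = 0.0209), and Notch3 is the other called member. Rgs5 was at 541 CPM in RW replicate 3, and with only that library put back the difference was -1.79 with an adjusted p of 0.0818, against 0.109 over all libraries. Without aN1aN2 replicates 1 and 4 its log2 fold change was -1.84 (adjusted p = 0.000647). Foxs1, a forkhead transcription factor found in pericytes and outside that list, fell from 2.02, 3.15, 3.23 and 2.98 CPM to 0.576, 0.675, 1.11, 1.34 and 0.773 CPM (log2 fold change -1.66, SE 0.28, adjusted p = 0.0356).

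Several other pericyte genes did not pass the test. Pdgfrb, the growth factor receptor of mural cells, had 58.8 to 65.8 CPM in RW and 34.3 to 57.7 CPM in aN1aN2 (log2 fold change -0.45, SE 0.17, adjusted p = 0.153), so its groups did not overlap. Ndufa4l2, a mitochondrial protein gene of pericytes, was at -0.95 (adjusted p = 0.158), and at a Tg minimum of 20% it was the third mural gene called (-1.60, adjusted p = 0.0232). Kcnj8, a potassium channel of pericytes, was at 0.11 (adjusted p = 0.783), and Cspg4, the proteoglycan NG2, at 0.22 (adjusted p = 0.709). The sign of Kcnj8 and of Cspg4 depended on the libraries used. The summed mural list took 0.0706% to 0.126% of counts in RW and 0.0606% to 0.354% in aN1aN2. It was highest in the muscle-rich aN1aN2 replicates 1 and 4 (0.354% and 0.290%) and ran from 0.0606% to 0.0896% without them. In RW replicate 3, also rich in muscle transcripts, it took 0.524%. The part of muscle in this share was not tested. In bulk tissue, fewer cells of a type and less RNA per cell cannot be told apart. Of 19 endothelial genes none was called and the median was -0.19 (-0.17 over all libraries). The 3 of lowest p were the growth factor receptors Kdr (-0.71, adjusted p = 0.149) and Flt1 (-0.50, adjusted p = 0.199) and the clotting protein gene Vwf (0.37, adjusted p = 0.199).

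**Figure D3:**
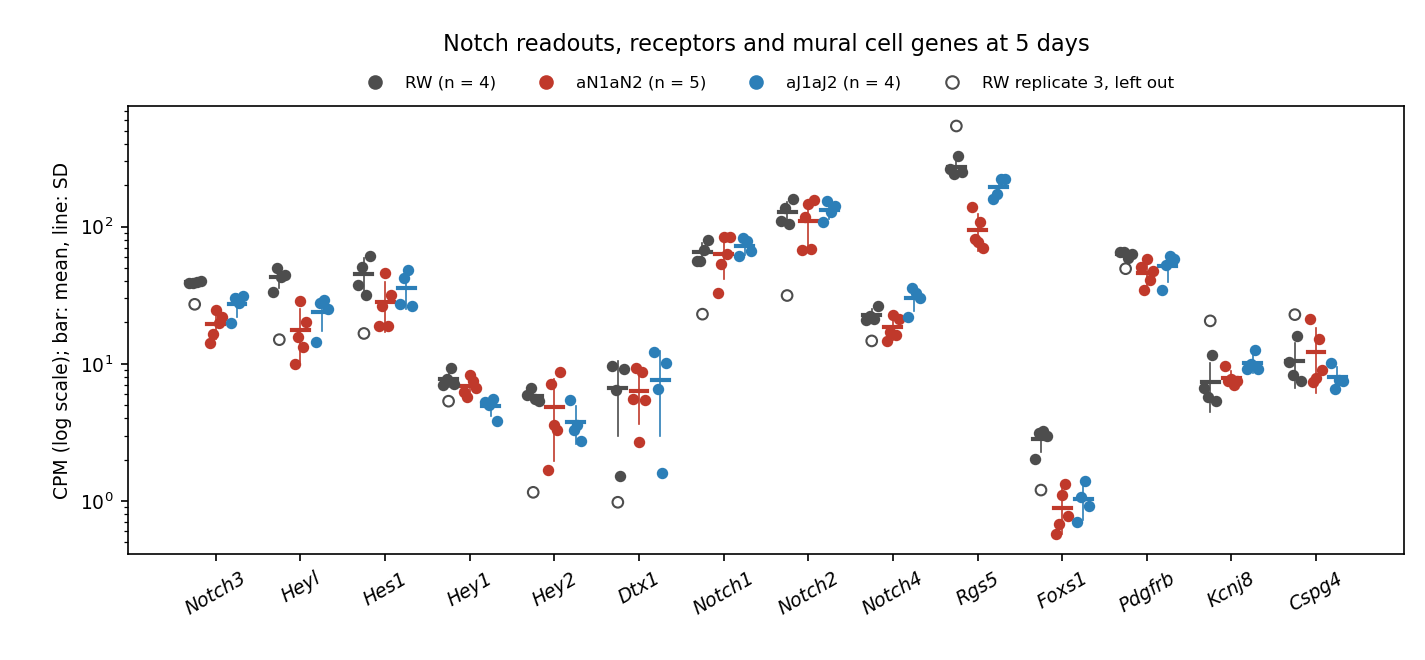
CPM (y axis, log scale) of Notch readouts, receptors and mural cell genes in each 5-day library, with the mean as a bar and the SD as a line for RW (n = 4), aN1aN2 (n = 5) and aJ1aJ2 (n = 4), and RW replicate 3 as an open circle. Notch3, Rgs5 and Foxs1 separate aN1aN2 from RW, whereas Notch1, Notch2, Hey1, Kcnj8 and Cspg4 overlap.

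Some genes of the machinery that loads, cuts and moves secreted proteins fell under aN1aN2. Of 26 genes for the signal peptidase, the translocon and the oligosaccharyltransferase, 5 fell and none rose, with a median of -0.63. Of 32 genes for Tmed-type cargo receptors and vesicle coats, 4 fell and none rose, with a median of -0.43. Of all genes tested 0.308% fell, and their median was 0.04. Over all libraries the medians of the 2 lists were -0.48 and -0.36, with 0 called. Both lists were assembled after these genes had been seen to be called, so their counts only describe them. Markers of the follicle epithelium, the cells that make Tg, had negative estimates in 18 of 19 genes and a median of -0.63, and 0 were called. That median was -0.36 over all libraries and -0.41 at a Tg minimum of 20%. The tight junction gene Cldn7 (-1.13, adjusted p = 0.0752) had the lowest p, and the exception in sign was Prom1 (5.30, adjusted p = 0.0926). The part of the follicle cells in the secretory results was not tested. Spcs3, a signal peptidase subunit, had 312, 403, 291 and 343 CPM in RW and 125, 155, 198, 88.7 and 141 CPM in aN1aN2 (log2 fold change -1.25, SE 0.20, adjusted p = 0.0281), and over all libraries it was at -1.05 (adjusted p = 0.276). Ostc, a subunit of the oligosaccharyltransferase, had 107, 113, 96.2 and 104 CPM in RW and 54.5, 68.1, 66.0, 42.0 and 61.4 CPM in aN1aN2 (log2 fold change -0.85, SE 0.12, adjusted p = 0.0265). Replicate 4, rich in muscle and thymus transcripts, was the lowest aN1aN2 library for both genes.

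The other called members of the first list were Spcs2 (log2 fold change -0.68), Ssr3 of the translocon complex (-0.63) and Tmem258 of the oligosaccharyltransferase (-0.53). In the second list Bet1, a vesicle fusion protein, fell from 45.5, 44.1, 40.2 and 42.6 CPM to 26.6, 28.0, 28.2, 20.1 and 21.9 CPM (log2 fold change -0.79, SE 0.11, adjusted p = 0.0236). The small GTPase gene Arf4 (-0.75) and the cargo receptor genes Tmed9 (-0.67) and Tmed2 (-0.43) were also called. Outside both lists, lower values were called for Mydgf (-0.81), Erp44 (-0.80), Surf4 (-0.73), Uso1 (-0.73), Selenok (-0.65), Scfd1 (-0.65) and Derl1 (-0.41), proteins of the endoplasmic reticulum (ER) or of traffic from it. Without aN1aN2 replicates 1 and 4 the 2 lists had 11 and 10 lower members, and their medians were -0.46 and -0.32. Of all genes tested there, 0.685% were lower.

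Of 20 ER chaperone and unfolded protein response genes none was called, although all 20 had negative estimates and the median was -1.16 (-0.93 over all libraries). Pdia6, a disulfide isomerase, had 735 to 1083 CPM in RW and 179 to 523 CPM in aN1aN2 (log2 fold change -1.30, SE 0.27, adjusted p = 0.0635). The cochaperones Dnajb11 and Dnajc3 were at -1.15 (adjusted p = 0.0635) and -1.13 (adjusted p = 0.0653). Hspa5, the main ER chaperone BiP, had 2827 to 5622 CPM in RW and 680, 1961, 1511, 512 and 1871 CPM in aN1aN2 (log2 fold change -1.63, SE 0.37, adjusted p = 0.0740). Its 2 lowest aN1aN2 values came from replicates 1 and 4, in which Tg was also lowest. Without those libraries 12 of the 20 genes fell, against 0.685% of all genes tested, and the list's median was -0.83. There Hspa5 was at -1.20 (adjusted p = 0.0279), Pdia6 at -0.95 (adjusted p = 0.0196) and Dnajc3 at -0.80 (adjusted p = 0.0131).

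The 3 enzymes that build fatty acids from citrate fell. Of 19 genes in a fatty acid synthesis list that was assembled after these calls, 3 fell and none rose, against 0.308% lower among all genes tested. The list's median was -0.51 (-0.33 over all libraries). Acly, which makes acetyl-CoA from citrate, had 441, 359, 379 and 323 CPM in RW and 145, 189, 222, 161 and 218 CPM in aN1aN2, and it fell by 1.00 on the log2 scale (SE 0.16, adjusted p = 0.0281). Acaca, acetyl-CoA carboxylase, had 127, 90.9, 104 and 80.7 CPM in RW and 32.6, 46.9, 55.3, 37.6 and 46.4 CPM in aN1aN2 (log2 fold change -1.20, SE 0.18, adjusted p = 0.0281). Fasn, fatty acid synthase, had 1223, 857, 932 and 739 CPM in RW and 227, 321, 380, 235 and 358 CPM in aN1aN2 (log2 fold change -1.62, SE 0.22, adjusted p = 0.0236). For all 3 enzymes the highest aN1aN2 library lay below the lowest RW library. Scd1, the next enzyme in the path, was at -1.65 but did not pass (adjusted p = 0.0590). Adipocyte markers, in which the same enzymes are high, took 0.0761% to 0.168% of counts in RW and 0.124% to 0.267% in aN1aN2, and 0 of 12 were called. Among libraries with Tg at 20% or more, 5 of the 19 genes fell (0.685% of all genes tested), and Fasn was at -1.42 (adjusted p = 0.0196). Over all libraries it was at -1.40 (adjusted p = 0.217).

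**Figure D4:**
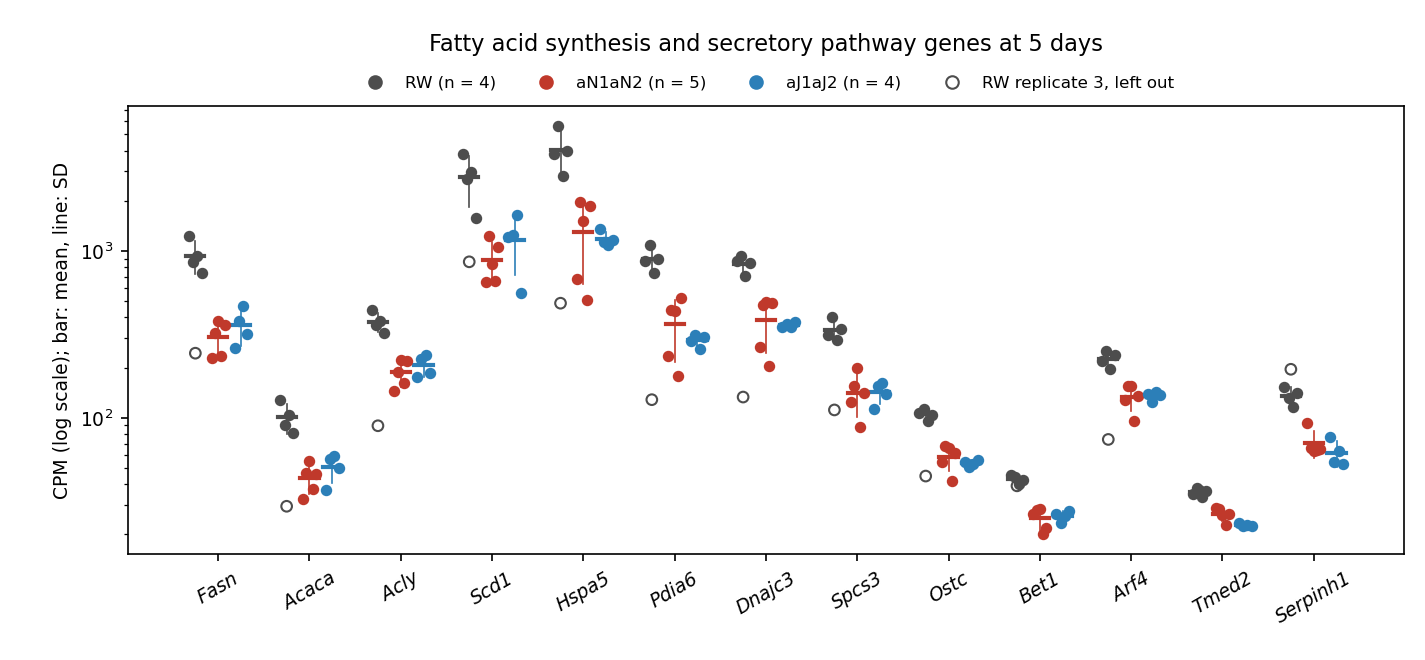
CPM (y axis, log scale) of fatty acid synthesis genes (Fasn, Acaca, Acly, Scd1), ER chaperones (Hspa5, Pdia6, Dnajc3), other secretory pathway genes (Spcs3, Ostc, Bet1, Arf4, Tmed2) and the collagen chaperone Serpinh1 in each 5-day library. Bars are means and lines SDs for RW (n = 4), aN1aN2 (n = 5) and aJ1aJ2 (n = 4), the open circle is RW replicate 3, and the aN1aN2 points lie below the filled RW points for each gene.

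Genes of thyroid hormone production were not called. Of 20 tested, 0 passed, with a median of -0.34. Tshr, the receptor for the pituitary hormone TSH, had 156, 171, 145 and 112 CPM in RW and 21.8, 86.1, 78.6, 22.9 and 71.5 CPM in aN1aN2 (log2 fold change -1.38, SE 0.38, adjusted p = 0.0926). It was lower in all 5 aN1aN2 libraries, with replicates 1 and 4 far below the rest. Without those libraries it was called, at -0.90 (adjusted p = 0.0279). The iodothyronine transporter gene Slc16a10 was at 0.96 (adjusted p = 0.107), and the kidney and thyroid cadherin gene Cdh16 at -0.85 (adjusted p = 0.173). Over all libraries Tshr was at -1.07 (adjusted p = 0.747). The list's median was -0.10 at a Tg minimum of 20% and -0.18 over all libraries.

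In a fibroblast and stroma list of 18 genes, 2 rose and 1 fell, against 0.0917% and 0.308% of all genes tested. The list's median of 0.27 changed sign with the libraries, to -0.11 at a Tg minimum of 20% (2 higher, 2 lower) and -0.01 over all of them. Inmt, a methyltransferase of stromal cells, rose from 13.8, 5.58, 12.7 and 8.74 CPM to 24.9, 30.2, 32.9, 29.3 and 28.6 CPM (log2 fold change 1.51, SE 0.25, adjusted p = 0.0336), and was at 1.40 over all libraries (adjusted p = 0.123). The gene of an enzyme that starts O-linked glycans, Galnt15, rose, with 22.1 to 31.4 CPM in RW and 35.2 to 65.9 CPM in aN1aN2, a log2 fold change of 0.95 (SE 0.18, adjusted p = 0.0489). Dok5, an adaptor of receptor tyrosine kinases, fell, with 8.07 to 10.5 CPM in RW and 1.41 to 4.63 CPM in aN1aN2 (log2 fold change -1.77, SE 0.27, adjusted p = 0.0281). These 3 genes were put in the list with their earlier values known, and are not independent markers of one cell type.

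Of 20 genes for collagen folding and crosslinking, 1 fell, against 0.308% of all genes tested. Serpinh1, the collagen chaperone HSP47, had 154, 132, 115 and 142 CPM in RW and 93.1, 65.7, 63.4, 64.4 and 65.2 CPM in aN1aN2 (log2 fold change -0.95, SE 0.15, adjusted p = 0.0281). The isomerase gene Ppib was at -0.84 (adjusted p = 0.0653) and the prolyl hydroxylase gene P4ha1 at -0.65 (adjusted p = 0.0724). None of 17 collagen genes was called, with a median of -0.33. The 3 of lowest p were the basement membrane collagen genes Col4a1 (-0.83, adjusted p = 0.0561), Col15a1 (-0.72, adjusted p = 0.0653) and Col18a1 (-0.72, adjusted p = 0.102). With the minimum at 20%, 4 collagen genes fell (0.685% of all genes tested) and the collagen median was -0.66. Over all libraries it was -0.55 with none called. Serpinh1 was at -1.08 over all libraries (adjusted p = 0.109).

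Inflammatory and immediate early genes were lower where they were called. Of 20 NF-kB pathway genes, a list assembled after these calls, 3 fell, against 0.308% of all genes tested. The list's median was -0.54 (-0.42 over all libraries). Relb, a subunit of NF-kB, had 26.1 to 51.2 CPM in RW and 10.2 to 22.9 CPM in aN1aN2 (log2 fold change -1.29, SE 0.24, adjusted p = 0.0460). Nfkb2, its partner subunit, was at -1.19 (adjusted p = 0.0423) and the adaptor gene Bcl10 at -0.73 (adjusted p = 0.0489), while Nfkb1 did not pass (-0.54, adjusted p = 0.0796). Without aN1aN2 replicates 1 and 4 none of the 20 was called, with a median of -0.43.

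Of 19 immediate early genes, 1 fell, against 0.308% of all genes tested, and the list's median was -0.73 (-0.85 over all libraries). Egr1, a transcription factor induced within minutes of many stimuli, had 107, 297, 32.2 and 59.8 CPM in RW and 17.6, 11.7, 16.3, 26.5 and 17.0 CPM in aN1aN2 (log2 fold change -2.80, SE 0.53, adjusted p = 0.0489). The spread lay in the RW group, led by replicate 2, while the aN1aN2 values were close to each other. Fosb and Egr2, of the same class, were at -2.29 (adjusted p = 0.0635) and -2.01 (adjusted p = 0.0745). Ccl7 was also highest in RW replicate 2 and lowest in RW replicate 4, with 2.37, 8.50, 0.487 and 4.37 CPM, against 0.633, 0.236, 0.172, 0.273 and 0.159 CPM in aN1aN2 (log2 fold change -3.73, SE 0.71, adjusted p = 0.0489). Bdkrb2, a bradykinin receptor gene, fell, with 7.27 to 24.6 CPM in RW and 2.47 to 4.41 CPM in aN1aN2 (log2 fold change -1.95, SE 0.37, adjusted p = 0.0489), again with RW replicate 2 highest. Egr1, Ccl7 and Bdkrb2 were not called at a Tg minimum of 20% (adjusted p = 0.0858, 0.0553 and 0.0981). There the immediate early list had a median of -0.90, and 2 other members fell, Egr2 (-2.84, adjusted p = 0.0196) and Egr3 (-2.21, adjusted p = 0.0261).

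Among venous and other vessel genes, Ackr1, a chemokine receptor of venules, was at -0.92 (SE 0.13, adjusted p = 0.0265) and S1pr3, a sphingosine phosphate receptor, at -0.72 (SE 0.12, adjusted p = 0.0281). Exons of Ackr1 overlap those of Cadm3 on the same strand, and Cadm3 was also called (-0.94), so their reads cannot be told apart. Sod3, the extracellular superoxide dismutase, was at -0.61 (SE 0.10, adjusted p = 0.0281), with 85.5 to 98.9 CPM in RW and 54.8 to 66.5 CPM in aN1aN2, and at -0.41 over all libraries (adjusted p = 0.662). These genes were named after their values were seen. Of the 74 called genes, 27 share exon bases with another annotated gene, 4 of them on the same strand.

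The remaining genes of large change belong to none of the lists described. Csmd2, a large membrane protein, fell, with 6.64 to 9.21 CPM in RW and 0.929 to 2.36 CPM in aN1aN2 (log2 fold change -2.37, adjusted p = 0.0209). Ephx3, an epoxide hydrolase, fell too, with 2.85 to 3.41 CPM in RW and 0.437 to 0.983 CPM in aN1aN2 (log2 fold change -2.13, adjusted p = 0.0281). In RW replicate 3 both were low too, at 0.311 and 0.934 CPM. Slc2a6, a sugar transporter, was at -1.90 (adjusted p = 0.0489), with 14.3 to 17.8 CPM in RW and 1.89 to 6.63 CPM in aN1aN2, and Shisal1 at -1.27 (adjusted p = 0.0299). Wnk2, a kinase gene (0.85, adjusted p = 0.0281), Phf7 (1.02, adjusted p = 0.0456) and the olfactory receptor gene Olfr920 (1.00, adjusted p = 0.0364) were higher, the last at 0.843 to 2.19 CPM in all 9 libraries. Predicted or unnamed transcripts included Gm27252 (2.41), 1700028E10Rik (1.38) and Gm16845 (1.33) among the higher genes and Gm5182 (-1.23) among the lower. Actg1, at -2.35, had only 0.0547 to 1.11 CPM, and its counts are given as uncertain, since near-identical actin gene copies exist and how reads matching several genes were counted is not given in the sources used here. Hpd, an enzyme of tyrosine breakdown, had 2 counts in the 4 RW libraries together and 55 in the 5 aN1aN2 libraries. The ratio per total count was 21.6 (exact binomial 95% interval 5.69 to 182), with reads pooled over libraries and counting error only. It was called in the edgeR test (adjusted p = 0.0460). Its RW counts alone could not pass the count filter, so treated libraries brought it into the test. It was tested in 16 of the 23 alternative fits.

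The marker lists of muscle, thymus and airway had positive medians in aN1aN2 over the 9 libraries, with no member called. Those of parathyroid (-0.08), C cells (-0.26) and neutrophils and the acute phase (-0.58) had negative medians, again with no call. Over all libraries these medians were 0.20, 0.04 and -0.89, and at a Tg minimum of 20% -0.18, 0.13 and -0.46, so the first 2 changed sign with the libraries. The muscle share was tried as a covariate, with the calls given above, and the part of the other tissues in the results was not tested. The muscle list had a median of 2.84 and 0 of 18 called over the 9 libraries, -0.56 over all libraries and 0.76 at a Tg minimum of 20%. Its 3 genes of lowest p, Actn3, Acta1 and Atp2a1, had log2 fold changes of 3.31, 3.12 and 2.88 (adjusted p = 0.120, 0.143 and 0.145), and all 3 were negative with only RW replicate 3 put back. Nuclear genes for oxidative phosphorylation, which muscle expresses strongly, had a median of 0.44 over the 9 libraries, -0.52 over all libraries and -0.02 at a Tg minimum of 20%. The cell cycle list had a median of 2.17 over the 9 libraries, 2.15 over all libraries and -0.05 without aN1aN2 replicates 1 and 4. The T cell and thymus list was at 5.42, 5.57 and 2.33 and the airway list at 6.49, 5.75 and 3.47 under the same 3 choices.

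**Figure D5:**
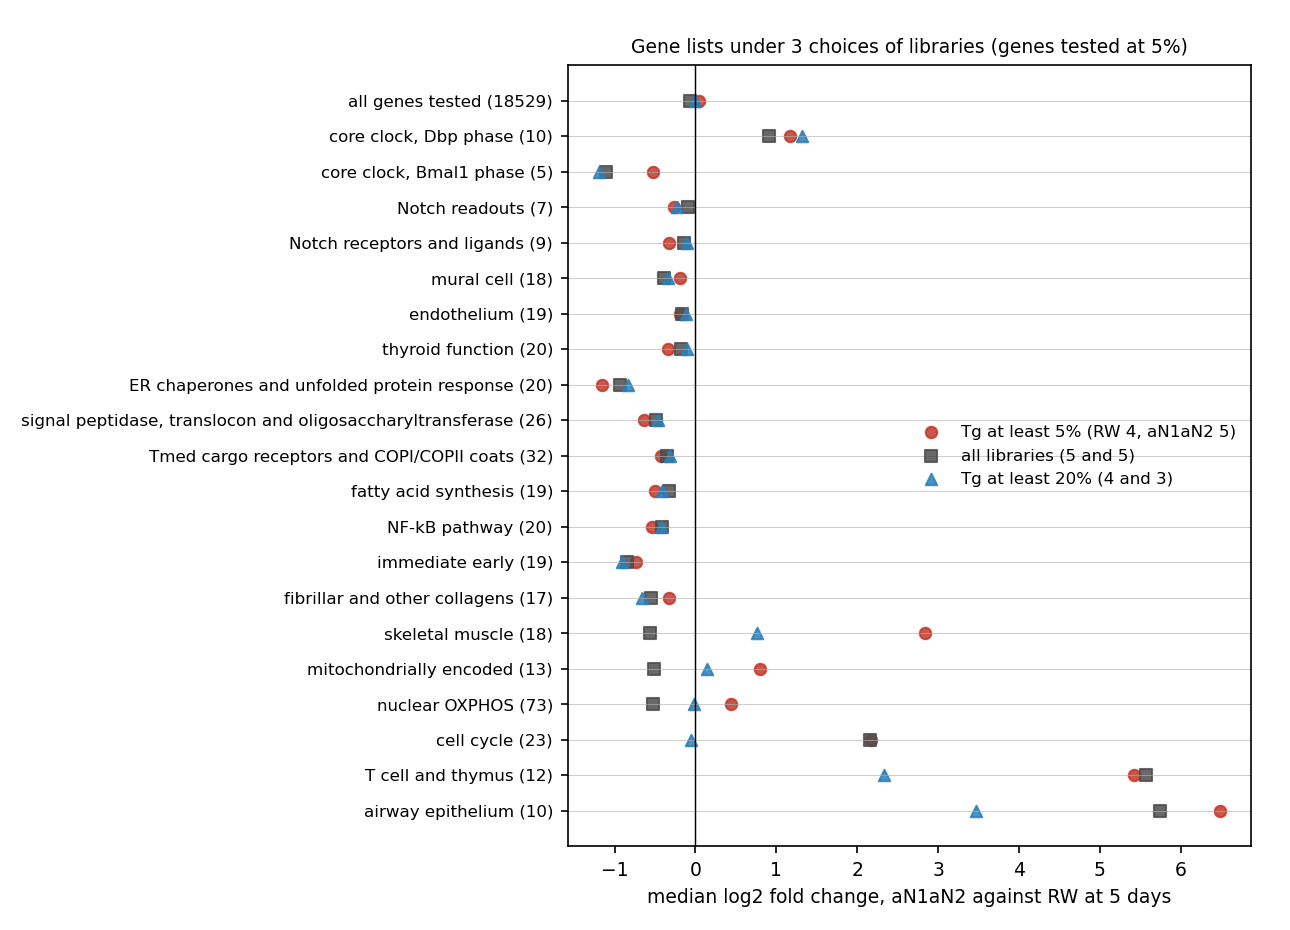
Median log2 fold change of aN1aN2 against RW at 5 days (x axis) for 20 gene lists and for all genes tested (rows, with the number of genes tested), over libraries with Tg at 5% or more (circles), all libraries (squares) and libraries with Tg at 20% or more (triangles). The clock, secretory and fatty acid lists keep their sign under the 3 choices. The muscle, mitochondrial, oxidative phosphorylation and cell cycle lists change sign, as does the median near 0 of all genes tested.

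The aJ1aJ2 libraries share the RW controls, so their values are set side by side only. Against RW, aJ1aJ2 gave 242 calls (1.31% of genes tested). Called or not, log2 fold changes were 1.82 for Nr1d1, 1.73 for Tef, -1.39 for Fasn, -1.25 for Spcs3, -0.52 for Notch3, -0.48 for Rgs5 and -0.83 for Heyl. No Notch readout and no mural cell gene was called under aJ1aJ2, so Notch3, Rgs5 and Heyl are not among the 242. The direct comparison of aN1aN2 with aJ1aJ2 sets no RW library against them, although RW shares its scaling, filter and estimate of spread, and it called 3 genes (0.0162%), with 1845 at an unadjusted p under 0.05. None of these 3 is among the 74, whose adjusted p in that comparison ran from 0.241 to 0.999. Rgs5 was lower under aN1aN2 than under aJ1aJ2 by a log2 fold change of -1.03 (adjusted p = 0.241), with 70.4 to 138 CPM against 158 to 223 CPM. The 3 genes called, named after their values were seen, were Cyp1a1, a detoxifying enzyme (log2 fold change 3.45, adjusted p = 0.0435), Sema3g (0.76, adjusted p = 0.0435) and Sema6a (-0.64, adjusted p = 0.0435), both guidance molecules. Sema3g, which marks arterial endothelium, had 20.6 to 22.2 CPM in RW, 18.3 to 25.9 CPM in aN1aN2 and 12.1 to 14.3 CPM in aJ1aJ2. Its aN1aN2 values overlapped those of RW.

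At 15 hours after the dose the same contrast called 311 genes (1.68%), 163 higher (0.880%) and 148 lower (0.799%). The RW libraries at 15 hours and the aN1aN2 libraries at 15 hours carry sample identifiers from separate number ranges and stand in separate stretches of columns. No label says what this split is. The split and the treatment cannot be told apart at that time. Of the 74 genes, 73 were tested at 15 hours. None was called in the same direction and 6 were called in the opposite one. Nr1d1 was at -1.84 at 15 hours (adjusted p = 0.00750), Nr1d2 at -1.13 (adjusted p = 0.00246) and Dbp at -1.30 (adjusted p = 0.0375), each opposite to its value at 5 days. Notch3 was at -0.43 (adjusted p = 0.288), Heyl at -1.14 (adjusted p = 0.0783) and Rgs5 at -0.22 (adjusted p = 0.568) at 15 hours. The test of the difference between the times gave adjusted p = 0.00265 for Rgs5, 0.163 for Notch3 and 0.860 for Heyl. Rgs5 was named for its change at 5 days, which favours such a difference.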

How the data were processed

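Deposited values are whole-number read counts and FPKM per gene for 50 thyroid libraries, per the labels' protocols from total RNA read as single-end 50-base reads. The submitters' processing notes name GSNAP and limma. Build, annotation and counting tool were not given in the sources used here. Symbols matched 52403 of 52636 gene IDs (GENCODE M21).

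Groups came from the titles. Counts were fitted with edgeR 4.0.16 (R 4.3.3; filterByExpr with a minimum count of 10 and total of 15, TMM, robust quasi-likelihood test, two-sided) over the 13 libraries of the 3 5-day groups with Tg at 5% or more, and adjusted by Benjamini-Hochberg over all genes tested. CPM are TMM-scaled in that fit, and for RW replicate 3 in the fit of all 15 libraries. DESeq2 1.42.0, limma 3.58.1 (also on log2(FPKM + 1)), other scalings, filters, a muscle covariate and left-out or put-back libraries were alternatives, the last added after seeing the data. On simulated counts for this comparison (18354 genes), the edgeR step recovered 49 of 98 genes changed 2-fold and 75 of 98 changed 4-fold, with 7 false calls. Each gene was drawn independently, without differences in tissue content shared by the genes of a library. The false calls therefore do not measure the error among the 74 genes called.

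Members and lists were chosen with earlier results of these data known. The text names the 15 genes of largest change in each direction among called genes without overlap, all Notch readouts, receptors and ligands, and up to 3 genes of lowest p per list described, of which 1 is not reported here. Other names were chosen after their values were seen: the further called genes, Hspa5, Scd1, Nfkb1, Pdgfrb, Ndufa4l2, Egr3, Kcnj8, Cspg4, Odf3l2, Cyp1a1, Sema3g and Sema6a. No 2 libraries of a group agreed within sampling noise (smallest chi-square per degree of freedom 18.8).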

Additional observations from a re-analysis of the deposited data

Results flagged for a closer look

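Several libraries stood apart from the rest of their group in the gap to the nearest library relative to the group's range (Dixon's criterion), which chance alone meets in about 1 of 20 groups. Over 208 group checks of genes, 17 were met, and over 10 group checks of composition shares, 5. RW replicate 3 was apart in Tg (0.450% of counts), skeletal muscle genes (19.2%) and mitochondrially encoded genes (10.6%). This library was left out for its Tg share, so its Tg flag repeats that choice and is no support for it. Its flags are counted among the 5. Replicate 4 of aN1aN2 was apart in T cell and thymus genes (0.191%) and replicate 1 in airway genes (0.966%). Among the 4 RW libraries, replicate 1 was apart for Hpd (0.0392 CPM) and Vwf (67.6 CPM). For Hpd this is 2 counts against 0 in the others. Replicate 2 was apart for Slc2a6 (17.8 CPM) and Erp44 (124 CPM), and replicate 4 for Neurl1a (23.2 CPM) and Itch (107 CPM). Replicate 5 was apart for Nr1d2 (32.1 CPM) and Sod3 (85.5 CPM). Among aN1aN2 libraries, replicate 1 was apart for Serpinh1 (93.1 CPM), Ccl7 (0.633 CPM), Kcnj8 (9.58 CPM), Prom1 (92.8 CPM) and Ndufa4l2 (4.58 CPM), and replicate 4 for Mydgf (21.9 CPM), Tmed9 (82.2 CPM), Derl1 (60.2 CPM) and Egr3 (1.69 CPM). The part of these libraries in the results was not tested beyond the values without them.

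The effect of aN1aN2 differed between 5 days and 15 hours for 23 of the genes named by rule. The test was edgeR's test of the difference, with Benjamini-Hochberg adjustment over all genes. The rule took 15 genes in each direction for their large change at 5 days, which favours a difference in that direction. The count is therefore descriptive only, and the share of all genes passing is not given here. At 15 hours the groups lie on either side of the split in sample identifiers and columns, so time and that split cannot be told apart. The difference, 5 days minus 15 hours on the log2 scale, was positive for Hpd (7.33), Dbp (4.58), Nr1d1 (3.57), Nr1d2 (2.24), Tef (2.15), Olfr920 (2.05), Per3 (1.96), 1700028E10Rik (1.78), Gm16845 (1.64), Inmt (1.48), Cry2 (1.23), Wnk2 (1.15) and Phf7 (1.12). It was negative for Actg1 (-3.75), Ephx3 (-2.65), Fasn (-2.40), Gm5182 (-2.01), Acaca (-1.75), Dok5 (-1.43), Spcs3 (-1.40), Foxs1 (-1.35), Rgs5 (-1.35) and Shisal1 (-1.09). At 15 hours a list of 11 liver genes took 0.00564% to 0.033% of counts in RW and 0.00019% to 0.000413% in aN1aN2. All 11 were called lower there, against 0.799% of all genes tested, with a median log2 fold change of -7.08. The part of liver transcripts in the values at 15 hours, that of Hpd among them, was not tested. At 5 days treated libraries brought Hpd into the test.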

How the results depend on the processing

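The number of called genes varied with the method and the libraries. Against 74 over the libraries above the Tg limit, 66 were called at a Tg minimum of 10% and 50 with Tg left out of the counts. By limma-trend on FPKM 62 were called, with edgeR's RLE scaling in place of TMM 48, and without a count filter 35. With only the RW and aN1aN2 groups in the fit 2 were called, and with a muscle covariate 5. At a Tg minimum of 20% (an alternative added after seeing the data) 182 were called. By limma voom with sample weights 1413 were called, and by DESeq2 1744 (929 higher and 815 lower). With all libraries 0 were called. With only RW replicate 3 put back 0 were called, and with only aJ1aJ2 replicate 3 put back 9 (both added after seeing the data). Leaving out 1 library at a time gave 1 to 269. Over all libraries, the count of 0 became 402 by DESeq2, 1507 by limma voom with sample weights and 780 with the muscle covariate, and leaving out 1 library gave 0 to 9, the 9 without RW replicate 3. The replicate number as a block gave 659 calls and, over all libraries, 0. The numbers are not shown to pair the libraries: deviations of same-numbered libraries correlated at -0.25, 0.18, 0.18 and 0.33, and only replicate 2 correlated best with its own number. The Notch readout median of -0.27 ran from -0.66 (without aN1aN2 replicate 5) to -0.14 over the left-out libraries.

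No called gene named here reversed. These genes were called in libraries that the alternatives largely reuse, so kept directions are no added support. Of uncalled genes, with all libraries Acta1 (-0.43), Actn3 (-0.44), Atp2a1 (-0.23), Cspg4 (-0.10), Kcnj8 (-0.35), Neurl1a (-0.70), Slc16a10 (-0.39), Jag2 (-0.0281), Dtx1 (0.18), Notch1 (0.15) and Notch2 (0.0273) changed sign. The same 11 did with only RW replicate 3 put back, at values such as -0.0289 for Jag2, 0.0266 for Notch2, -0.70 for Neurl1a and -0.0972 for Cspg4, and none did with only aJ1aJ2 replicate 3 put back. With the muscle covariate, Cspg4 (-0.48), Kcnj8 (-0.0423), Neurl1a (-0.12), Notch1 (0.26), Notch2 (0.23), Jag1 (0.0810) and Dll3 (0.0230) did. At a Tg minimum of 20%, Cspg4 (-0.38), Hey2 (0.13), Notch1 (0.16), Notch2 (0.12) and Dll3 (0.0188) did, and at 10% Cspg4 (-0.0809) and Notch1 (0.12). With limma voom, Cspg4 (-0.14), Hey2 (0.15), Notch1 (0.18) and Notch2 (0.10) did, and with the block Dtx1 (0.51). Over the left-out libraries Cspg4 ran from -0.0809 to 0.48, Kcnj8 from -0.0202 to 0.40, Dtx1 from -0.42 to 0.14 and Notch1 from -0.17 to 0.12. The cause of these changes was not tested. Depth limits what can be said of Hes5, Nrarp, Hpd and Actg1, with few counts per library.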
